A study of Mus musculus with 6 samples.

Results

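The genes described here are the subunits of the proteasome and the proteins that bind to it, taken as every listed gene whose symbol starts with Psma, Psmb, Psmc, Psmd, Psme or Psmf followed by a digit. The name rule picked 46 of 23282 genes listed. They comprised 7 subunits of the 20S alpha ring, 3 constitutive catalytic and 4 structural beta subunits, 3 immunoproteasome beta subunits, 2 tissue-restricted 20S subunits, 6 ATPases and 11 non-ATPases of the 19S particle, 3 assembly chaperones of the 19S particle, 4 activators and the inhibitor Psmf1. The remaining 2, Psmc3ip and Psme2b, were matched by name only. Psmc3ip encodes a meiotic recombination factor, and Psme2b is a near copy of the activator gene Psme2.

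The RNA-Seq data came from the whole forebrain of wild-type (WT) male C57BL/6J mice aged 8 to 10 weeks. In the control group, 3 libraries were from mice on a normal chow diet (NCD), and in the other group 3 libraries were from mice given a high-fat diet (HFD) with 60% of its energy from fat for 10 days. Each library was made from the forebrain of a hemisphere without the olfactory bulb and cerebellum, so it mixed neurons, glia and the cells of vessels. The comparison asked which transcripts differed in the brain after a short exposure to the HFD.

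The proteasome is the protease that degrades most short-lived and damaged proteins in the cytosol and nucleus, after they have been tagged with ubiquitin. Its 20S core is a barrel of stacked alpha and beta rings with the active sites inside, and the 19S particle on its ends binds ubiquitin chains, unfolds the substrate with a ring of ATPases and threads it into the core. In immune cells, and in other cells exposed to interferon, the inducible subunits Psmb8, Psmb9 and Psmb10 replace Psmb5, Psmb6 and Psmb7 and change the peptides produced for MHC class I molecules, while in neurons of the healthy brain the constitutive form prevails.

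The 3 genes with an unadjusted p under 0.05 between the diets were Psmb9, Psme1 and Psmd9. Stretches of their promoters are shown together with that of Psmb5, the catalytic subunit with the highest level per kilobase of annotated exon. Without the division by length Psmb7 was higher, with 147 against 125 CPM. The sequences are RefSeq promoters on GRCm38.p6, for which 39 of the 46 genes had an entry, and they run 5′ to 3′ on the strand of the gene. Capitals mark 1 or 2 chosen motif matches in each stretch, on either strand, and matches to the other motifs searched are left in lower case. In Psmb9 (chr17:34187331-34187580, minus strand) they mark a CCAAT box on the opposite strand, in Psmb5 (chr14:54617996-54618245, minus strand) an antioxidant response element (ARE) core and in Psme1 (chr14:55578244-55578512, plus strand) an interferon-stimulated response element (ISRE) on the opposite strand, just after the start site. In Psmd9 (chr5:123227940-123228189, plus strand) they mark an ISRE and then an ARE core. The start sites are those of RefSeq. In the GENCODE annotation used for the gene positions below, Psmb9, Psme1 and Psmd9 begin upstream of the stretch shown.
Psmb9: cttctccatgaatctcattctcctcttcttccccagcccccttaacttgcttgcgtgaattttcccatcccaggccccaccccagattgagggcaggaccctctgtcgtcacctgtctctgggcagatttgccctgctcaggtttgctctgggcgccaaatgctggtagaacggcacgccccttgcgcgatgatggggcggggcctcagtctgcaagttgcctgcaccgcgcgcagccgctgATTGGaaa
Psmb5: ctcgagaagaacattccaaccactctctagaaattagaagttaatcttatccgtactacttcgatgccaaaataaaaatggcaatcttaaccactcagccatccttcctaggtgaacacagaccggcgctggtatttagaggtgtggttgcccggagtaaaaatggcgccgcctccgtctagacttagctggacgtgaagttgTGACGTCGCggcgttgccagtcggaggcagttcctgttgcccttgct
Psme1: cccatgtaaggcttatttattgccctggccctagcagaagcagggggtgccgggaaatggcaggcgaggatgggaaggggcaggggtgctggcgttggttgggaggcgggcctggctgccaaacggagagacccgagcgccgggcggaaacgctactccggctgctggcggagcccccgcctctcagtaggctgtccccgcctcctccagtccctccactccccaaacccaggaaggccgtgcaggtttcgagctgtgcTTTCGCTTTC
Psmd9: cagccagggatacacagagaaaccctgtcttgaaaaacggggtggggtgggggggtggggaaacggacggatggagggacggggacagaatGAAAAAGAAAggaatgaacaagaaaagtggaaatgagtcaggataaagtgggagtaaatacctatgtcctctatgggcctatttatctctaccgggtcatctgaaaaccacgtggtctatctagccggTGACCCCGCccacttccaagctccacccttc

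Motifs were searched by their letters on both strands over 250 bases before and 50 bases after the start. The ISRE (GAAA, any pair of bases, GAAA) was present at 4 of the 39 proteasome genes, or 10.3%, against 3.99% of 27025 genes with a promoter entry, and these were Psmb3, Psme1, Psmd4 and Psmd9. The ARE core (TGACNNNGC) was found at Psmb5, Psmb6, Psmc6, Psmd9, Psmd12 and Psme4, which are 15.4% of the proteasome genes against 14% of all genes. An ETS motif (CCGGAAG) was found at 13, or 33.3% against 9.93%. The CCAAT box was present at 15, or 38.5% against 41.1%, and the TATA box (TATAAA) at 4, or 10.3% against 15.7%. An NF-κB-like motif (GGG and CC with any 5 bases between) was present at 22, or 56.4% against 53.5%. A match is a stretch of letters and not a bound site.

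The total count per library was between 8061348 and 9689372 on the NCD and between 6842785 and 9119597 on the HFD. Levels are given as CPM, the counts scaled to a common library size with the TMM method, and a count of 3, taken as the floor, was between 0.310 and 0.438 CPM before that scaling. HFD replicate 3 stood apart from the rest. The summed level of 7 pituitary markers, such as the growth hormone gene Gh, was 1276 CPM in this library and between 4.75 and 13.6 CPM in the other five, and the summed level of 10 forebrain neuron markers was 4287 CPM against a range of 4635 to 4845. Values without this library are therefore given beside the results that it moved most. Some transcripts of other tissues also differed between the libraries. Of 6 liver genes tested, 5 were lower on the HFD at an unadjusted p under 0.05 in edgeR, as were 1.98% of all genes tested. The 6 had a median log2 fold change of -1.71 and a median level of only 2.90 CPM. The diets were separate in 2 of the 6, and 0 had an adjusted p under 0.05. Of 5 cerebellum and olfactory bulb genes tested 2 were lower at that unadjusted threshold, Eomes and Th. The median log2 fold change of the 5 was -0.85, or -0.18 without NCD replicate 2, and the diets overlapped in all 5. The part of liver, cerebellum and olfactory bulb RNA in the proteasome levels was not tested. Nothing in the labels states how the libraries relate to single animals, so the p-values measure only the spread between these libraries.

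Proteasome genes were expressed at moderate levels in the forebrain. Their share of the counts per library was between 0.421% and 0.479%, and the genes tested had a median of 76.9 CPM against 21.8 CPM for all genes tested. Their spread within a diet, as a standard deviation of log2(CPM + 1), had a median of 0.151 against 0.188 for all genes tested. This spread also depends on the level, for which the sets were not matched. The highest mean level was that of Psma7, an alpha ring subunit, with 268 CPM, and Psmd4, a ubiquitin receptor of the 19S particle, had 229 CPM. Since reads of 3′ libraries lie near the end of a transcript, the division by annotated exon length used below to compare genes is only a guide.

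In edgeR's quasi-likelihood test over 13771 genes, 44 of the 46 genes passed the filter on low counts. Psme1 and Psmb9 were higher on the HFD and Psmd9 was lower at an unadjusted p under 0.05, which are 2 and 1 of 44, while 1.71% of all genes tested were higher and 1.98% lower at that threshold. Without NCD replicate 3, 0 of the 44 were under it. The unadjusted p in edgeR was then 0.0954 for Psme1, 0.153 for Psmb9 and 0.256 for Psmd9. After Benjamini-Hochberg adjustment over all genes in edgeR, 0 of the 44 passed, with adjusted p-values between 0.979 and 0.999, and 0% of all genes did. DESeq2 left 0 of the 44 under an adjusted p of 0.05, with 2 under 0.05 before adjustment. In 3 genes, Psma6, Psme1 and Psmb8, all HFD libraries lay above all NCD libraries, and in 0 they lay below, while 4.31% of all genes tested were separated upwards and 4.49% downwards. An exact permutation test of 3 libraries against 3 gives a separated gene p = 0.1, its lower limit. Psmb9 was also past a fold of 1.5 at an unadjusted p under 0.05, as were 0.53% of all genes tested upwards and 0.748% downwards.

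Of the 44 genes, 32 had a log2 fold change above 0, with a median of 0.08, against 49.4% and a median of -0.00245 for all genes tested. Without HFD replicate 3 only 18 were above 0, and the median was -0.02. The plot of fold changes shows both values for each gene.

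**Figure D1:**
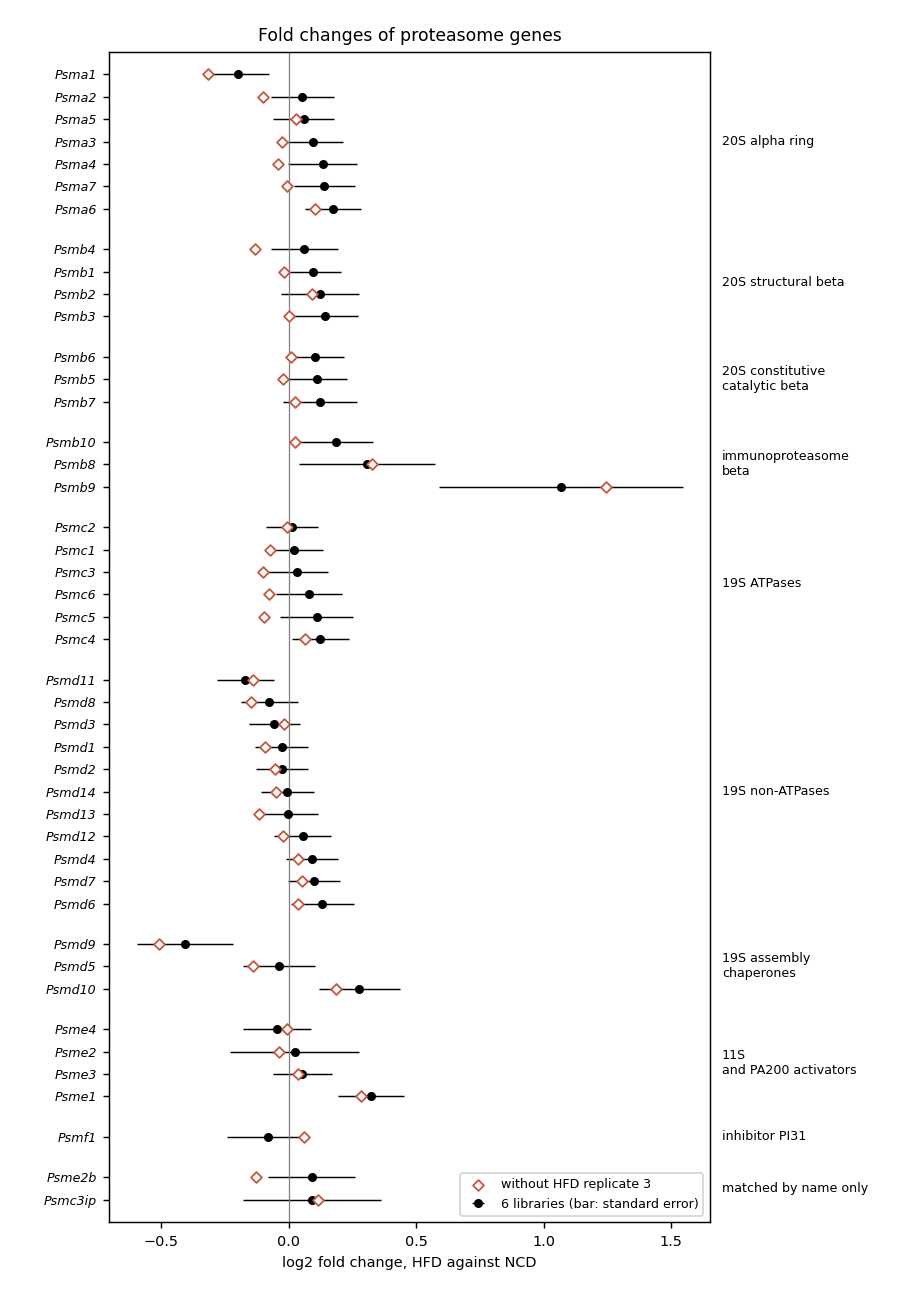
Log2 fold change of the 44 tested proteasome genes between HFD and NCD from edgeR, grouped by role. Black points with bars give the fold change from all libraries with its standard error, and open diamonds the value without HFD replicate 3. The diamonds of most 20S and 19S genes lie to the left of the points, while Psmb8, Psmb9, Psmd9 and Psme1 keep their side of 0.

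The 20S core genes were higher in 1 HFD library, and the other two HFD libraries did not stand above the NCD libraries. The summed level of the 14 constitutive 20S genes was 1675, 1705 and 1617 CPM in NCD replicates 1, 2 and 3 and 1598, 1643 and 2084 CPM in HFD replicates 1, 2 and 3. HFD replicates 1 and 2 lay below or within the range of the NCD libraries, and HFD replicate 3 lay above all others. The median log2 fold change of the 14 genes was 0.11, with 13 above 0, and -0.01 with 6 above 0 without HFD replicate 3. None of the 14 had an unadjusted p under 0.05 with all libraries.

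Among the catalytic subunits, Psmb5, which carries the chymotrypsin-like activity, had 118, 122 and 122 CPM on the NCD and 119, 119 and 153 CPM on the HFD. Its log2 fold change was 0.11 (standard error, SE, 0.12, unadjusted p = 0.362 in edgeR). Psmb6, of the caspase-like activity, had 109, 104 and 93.3 CPM on the NCD and 103, 103 and 123 CPM on the HFD, at a log2 fold change of 0.10 (SE 0.11, unadjusted p = 0.383 in edgeR). In both genes the diets overlapped and HFD replicate 3 was the highest library, without which the log2 fold changes were -0.02 and 0.01. Psmb7, of the trypsin-like activity, had 152, 164 and 105 CPM on the NCD and 141, 144 and 174 CPM on the HFD, with the log2 fold change at 0.12 (SE 0.15, unadjusted p = 0.408 in edgeR). It was low in NCD replicate 3, and without that library its log2 fold change was -0.05. A stretch of 255 bases at the 3′ end of Psmb7 overlaps the gene Nek6 on the other strand, and the use of strand in the counting is not given in the sources used here.

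In the alpha ring, which gates the entry to the core, Psma6 had 67.6, 73.9 and 68.3 CPM on the NCD and 75.7, 74.7 and 86.2 CPM on the HFD. The HFD libraries all lay above the NCD libraries, and the log2 fold change was 0.17 (SE 0.11, unadjusted p = 0.132 in edgeR). Psma1 had the lowest fold change of the ring, with 67.8, 77.2 and 67.6 CPM on the NCD and 59.0, 55.0 and 71.5 CPM on the HFD. Its log2 fold change was -0.20 (SE 0.12, unadjusted p = 0.123 in edgeR), with HFD replicate 3 inside the range of the NCD libraries. Without that library it was -0.32, with an unadjusted p of 0.00978 in edgeR. The other 5 alpha subunits had log2 fold changes from 0.05 (Psma2) to 0.14 (Psma7), and without HFD replicate 3 that of Psma2 was -0.10 and that of Psma7 -0.0061. The structural beta subunits ranged from 0.06 in Psmb4, which had 188, 207 and 203 CPM on the NCD and 172, 192 and 260 CPM on the HFD, to 0.14 in Psmb3, which had 45.5, 49.9 and 47.0 against 46.6, 48.5 and 62.3 CPM. Without HFD replicate 3 the log2 fold change of Psmb4 was -0.13 and that of Psmb3 was 0.00. Psmb3, Psmb5, Psma5, Psmd2 and Psme1 share near-identical 3′ ends with processed pseudogenes, so their counts are uncertain where reads had several alignments.

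The genes of the 19S particle were also highest in sum in HFD replicate 3. Their summed level was 2293, 2245 and 2423 CPM on the NCD and 2230, 2261 and 2560 CPM on the HFD, and 0 of the 17 had an unadjusted p under 0.05 in edgeR. All 6 ATPases had a log2 fold change above 0, with a median of 0.06, and 1 of 6 without HFD replicate 3, with a median of -0.08. Among the ATPases Psmc2 had the smallest difference, with 119, 121 and 117 CPM on the NCD and 120, 117 and 124 CPM on the HFD, at a log2 fold change of 0.01 (SE 0.10, unadjusted p = 0.9 in edgeR). Psmc4 had the largest, with 64.2, 67.4 and 73.9 CPM on the NCD and 68.5, 74.5 and 80.7 CPM on the HFD, at a log2 fold change of 0.12 (SE 0.11, unadjusted p = 0.29 in edgeR). The diets overlapped in both.

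Of the 11 non-ATPases, which form the lid and the ubiquitin-binding part of the base, 4 had a log2 fold change above 0, and the median was -0.01, or -0.05 without HFD replicate 3. Psmd6, a lid subunit with the highest fold change of these, had 50.4, 59.9 and 57.3 CPM on the NCD and 60.6, 54.3 and 68.9 CPM on the HFD, with a log2 fold change of 0.13 (SE 0.12, unadjusted p = 0.303 in edgeR), or 0.04 without HFD replicate 3. Psmd11, another lid subunit, had 82.5, 74.5 and 91.9 CPM on the NCD and 75, 75.6 and 70.4 CPM on the HFD, with a log2 fold change of -0.17 (SE 0.11, unadjusted p = 0.144 in edgeR). It was the non-ATPase with the lowest fold change, and HFD replicate 3 was its lowest library. Psmd14, the deubiquitinase that removes ubiquitin chains from substrates, differed little, with 123, 120 and 123 CPM on the NCD and 115, 120 and 129 CPM on the HFD (log2 fold change -0.01, SE 0.10).

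HFD replicate 3 was the highest of the libraries in 31 of the 44 genes, or 70.5%, and in 26.2% of all genes tested. Against the mean of the other five libraries its log2 ratio had a median of 0.30 over the 14 constitutive 20S genes, all of which lay above that mean, and of 0.18 over the 17 genes of the 19S particle, with 15 above. Over all genes tested the median was -0.01, with 49.2% above. The highest ratio was 0.49, in the ATPase gene Psmc5, which had 101, 107 and 124 CPM on the NCD and 105, 103 and 152 CPM on the HFD. Of the 44 genes, 37 lay above the mean of the other five libraries. Psmf1, which encodes the inhibitor PI31, had its lowest level in this library, with 32.0, 42.2 and 43.3 CPM on the NCD and 38.6, 43.2 and 29.0 CPM on the HFD, and a log2 ratio to the other five of -0.44. Psmd11 had a ratio of -0.18, and the activator gene Psme4 one of -0.13. This library was singled out after its values were seen, and the pituitary markers were high in the same library as the 20S and 19S genes. The part of that RNA in these levels was not tested.

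**Figure D2:**
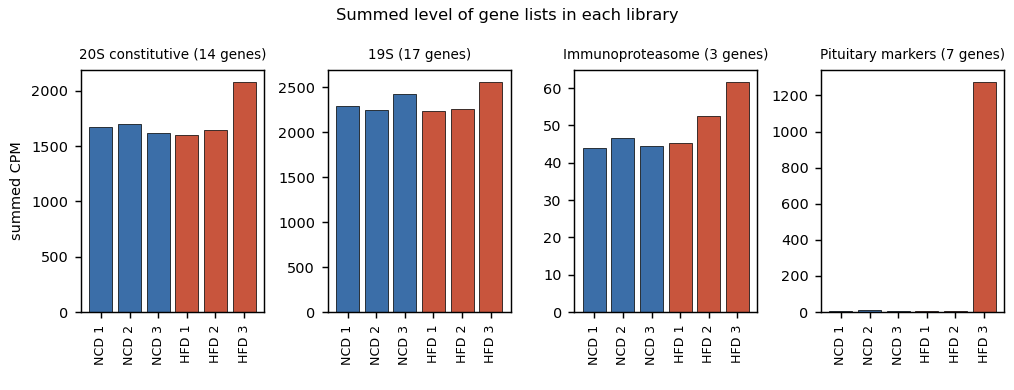
Summed CPM of the constitutive 20S genes, the 19S genes, the immunoproteasome genes and the pituitary markers in each library, with NCD in blue and HFD in red. HFD replicate 3 has the tallest bar in every panel, at 2084 CPM for 20S and 1276 CPM for the pituitary markers.

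**Figure D3:**
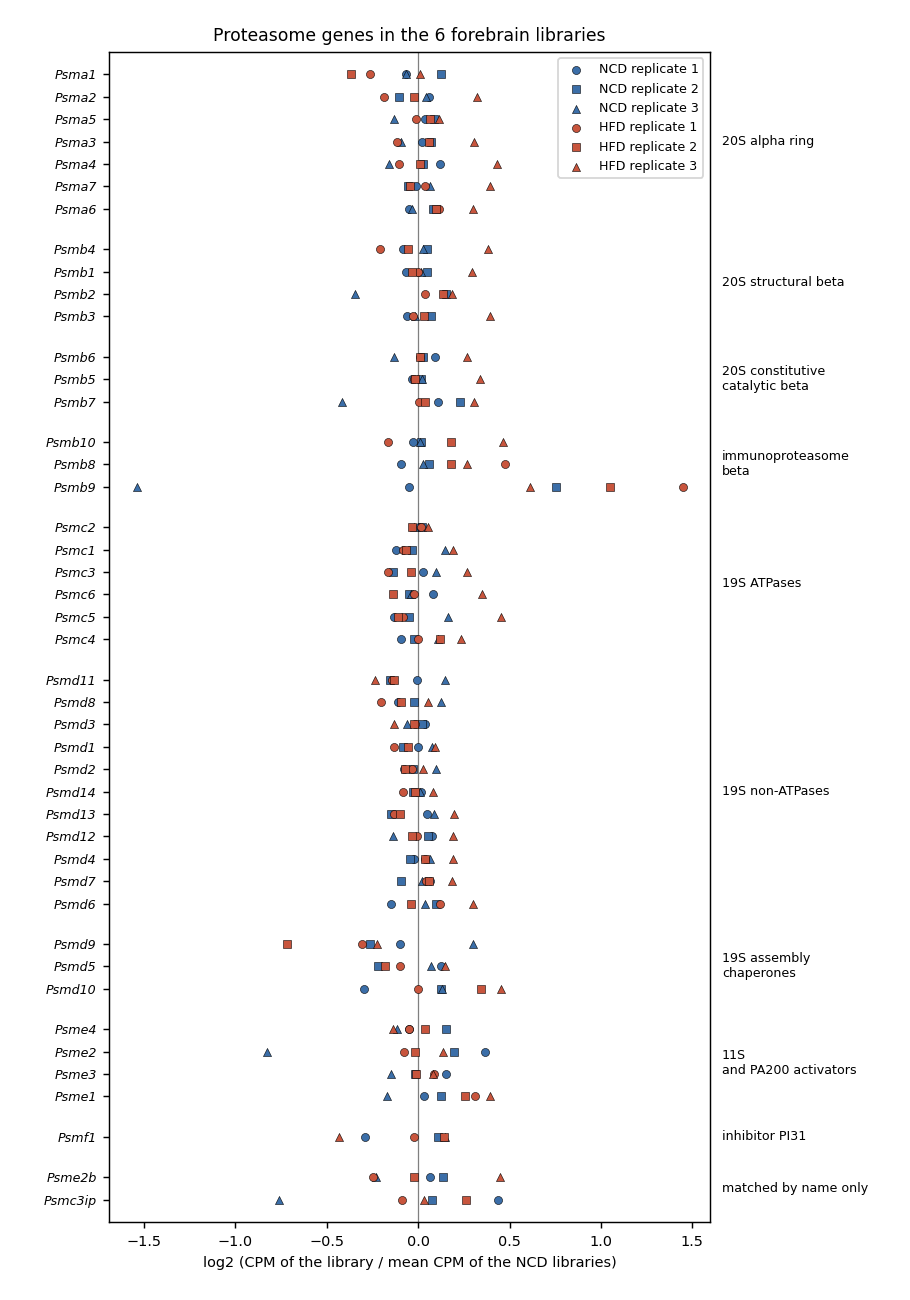
Level of each tested proteasome gene in each library, as the log2 ratio of its CPM to the mean of the NCD libraries, with a marker for each library. HFD replicate 3 (red triangles) lies to the right of the other libraries in most 20S and 19S genes, and Psmb9 has the widest spread.

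The immunoproteasome genes lay below their constitutive partners and all had a fold change above 0 on the HFD. Psmb5 had a mean of 125 CPM against 4.87 CPM for its inducible partner Psmb8. Psmb6 had 106 against 2.38 CPM for Psmb9, and Psmb7 had 147 against 41.9 CPM for Psmb10. Per kilobase of annotated exon, only a guide in 3′ libraries, the values were 139 against 1.44, 56.6 against 0.650 and 42.9 against 24.6 CPM. The 3 inducible genes had a median log2 fold change of 0.31, and of 0.32 without HFD replicate 3. Among these only Psmb9 had an unadjusted p under 0.05 in edgeR, and none had an adjusted p under 0.05. In bulk tissue, a different number of cells of a type and a different amount of RNA per cell cannot be told apart.

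Psmb9 lies at chr17:34181987-34187764 on the minus strand (GRCm38), in the MHC region next to the peptide transporter gene Tap1. It was counted 12, 24 and 5 times on the NCD against 29, 29 and 17 times on the HFD, or 1.48, 2.59 and 0.527 CPM against 4.17, 3.17 and 2.34 CPM. NCD replicate 3 was the lowest library and HFD replicate 1 the highest, and HFD replicate 3 lay below NCD replicate 2, so the diets overlapped. The log2 fold change was 1.07 (SE 0.48, unadjusted p = 0.0395 in edgeR's quasi-likelihood test, adjusted p = 0.979). It was 0.64 without NCD replicate 3 and 1.70 without NCD replicate 2. The unadjusted p in edgeR was over 0.05 when NCD replicate 1 (0.0776), NCD replicate 3 (0.153), HFD replicate 1 (0.138) or HFD replicate 2 (0.0713) was left out.

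Psmb8 lies on the plus strand at chr17:34197721-34201454, on the other side of Tap1. It had 4.07, 4.53 and 4.42 CPM on the NCD and 6.05, 4.92 and 5.22 CPM on the HFD, from 33, 42 and 42 counts and 42, 45 and 38 counts. All HFD libraries lay above the NCD libraries, and the log2 fold change was 0.31 (SE 0.27, unadjusted p = 0.269 in edgeR). Psmb10 had 38.5, 39.6 and 39.5 CPM on the NCD and 35, 44.5 and 54.2 CPM on the HFD. The NCD libraries were close to each other while the HFD libraries spread to both sides, and the log2 fold change of 0.18 (SE 0.15, unadjusted p = 0.221 in edgeR) was 0.02 without HFD replicate 3 and 0.33 without HFD replicate 1.

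The share of inducible genes among the counts of the 6 catalytic beta genes is a ratio within a library and does not depend on how libraries are scaled. It was 10.4%, 10.7% and 12.2% on the NCD against 11.1%, 12.6% and 12.1% on the HFD, with means of 11.1% ± 0.935 and 11.9% ± 0.755 (SD, n = 3). The difference of 0.808 percentage points was smaller than the spread between libraries of a diet, 0.850. Most inducible counts were of Psmb10, with a mean count of 350 against 40.3 for Psmb8 and 19.3 for Psmb9. Psmb8 and Psmb9 alone made up 1.43% ± 0.171 of the counts of the 6 genes on the NCD. On the HFD they made up 1.97% ± 0.514 (SD, n = 3), with HFD replicate 3 (1.48%) below NCD replicate 2 (1.63%). Psmb9 made up 1.34%, 2.43% and 0.561% of the counts of Psmb6 and Psmb9 on the NCD against 3.90%, 2.99% and 1.86% on the HFD. The exact 95% binomial interval reached from 0.182% to 1.30% in NCD replicate 3 and from 2.63% to 5.55% in HFD replicate 1, and these intervals cover counting error only. Psmb8 made up 3.35%, 3.59% and 3.49% of the counts of Psmb5 and Psmb8 on the NCD against 4.84%, 3.97% and 3.31% on the HFD. In this share HFD replicate 3 lay below the NCD libraries, while its CPM of Psmb8 lay above them. Psmb10 made up between 19.4% and 27.3% of the counts of Psmb7 and Psmb10 on the NCD and between 19.9% and 23.8% on the HFD.

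Cells that express inducible subunits were followed by their markers. Of 12 leukocyte markers, 5 passed the filter on low counts, and the summed level of the list was 12.1 to 14.5 CPM on the NCD and 15.1 to 19.3 CPM on the HFD, without overlap. These 5 had low mean levels, from 1.35 to 5.14 CPM. Of them 4 had a log2 fold change above 0, and that of Cd4 was -0.0996. Among them S100a9, a granulocyte gene, had an unadjusted p of 0.00623 in edgeR, while the B cell gene Ms4a1 had no count in any library and the T cell genes Cd3e, Cd3g and Cd8a had at most 1 count in a library. The summed level of 7 blood genes, such as the haemoglobin genes, was 610 to 738 CPM on the NCD and 762 to 1190 CPM on the HFD. At an unadjusted p under 0.05 in edgeR 6 of 7 were higher, as were 1.71% of all genes tested. All 6 were haemoglobin genes, so they are not 6 independent results, and the diets were separate in 3 of the 7. The 11 microglia markers summed to 503 to 506 CPM on the NCD and 513 to 545 CPM on the HFD, with 0 of 11 at an unadjusted p under 0.05 in edgeR. None of 13 interferon response genes tested had an unadjusted p under 0.05, and their summed levels overlapped. The part of leukocytes, blood and microglia in the levels of Psmb8, Psmb9 and Psme1 was not tested.

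Activators open the core without ubiquitin. Psme1, at chr14:55578123-55581529 on the plus strand, and Psme2 encode the subunits of the interferon-inducible PA28 ring. Psme1 had 31.0, 33.0 and 26.9 CPM on the NCD and 37.6, 36.2 and 39.7 CPM on the HFD, from 251, 306 and 255 counts against 261, 331 and 289. All HFD libraries lay above the NCD libraries, and the log2 fold change was 0.32 (SE 0.13, unadjusted p = 0.0246 in edgeR's quasi-likelihood test, adjusted p = 0.979). It was 0.28 without HFD replicate 3, and 0.24 with an unadjusted p of 0.0954 in edgeR without NCD replicate 3, its lowest library. Over 153 bases its 3′ end is 96.7% identical to the processed pseudogene Gm7776, which makes its counts uncertain in the same way.

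The partner Psme2 had overlapping diets, with 13.7, 12.2 and 6.01 CPM on the NCD and 10.1, 10.5 and 11.7 CPM on the HFD, at a log2 fold change of 0.02 (SE 0.25). The near copy Psme2b had 30.2, 31.8 and 24.7 CPM on the NCD and 24.3, 28.4 and 39.5 CPM on the HFD, at a log2 fold change of 0.09 (SE 0.17), or -0.13 without HFD replicate 3. Their last 300 bases are 99% identical, so the counts of Psme2 and Psme2b cannot be told apart reliably. Psme3, which encodes a nuclear activator, had a log2 fold change of 0.05 (SE 0.12). Psme4, which encodes the activator PA200, had 28.8, 33.0 and 27.5 CPM on the NCD and 28.8, 30.5 and 27.1 CPM on the HFD, with overlapping diets and a log2 fold change of -0.05 (SE 0.13, unadjusted p = 0.732 in edgeR). The inhibitor gene Psmf1 had a log2 fold change of -0.08 (SE 0.16), and of 0.06 without HFD replicate 3.

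**Figure D4:**
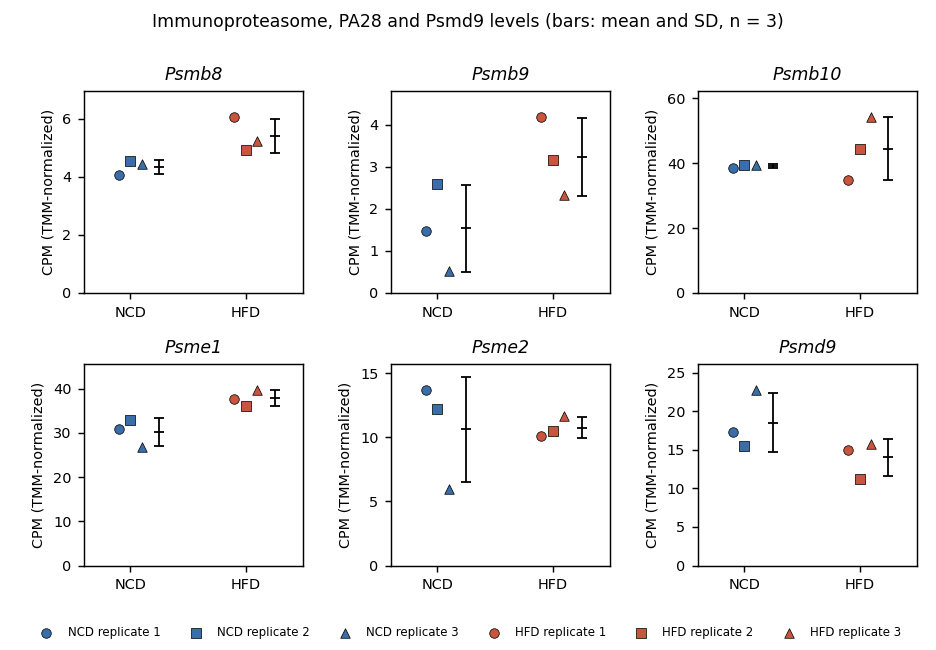
CPM of the immunoproteasome genes Psmb8, Psmb9 and Psmb10, the PA28 genes Psme1 and Psme2 and the chaperone gene Psmd9 in each library, with the mean and SD of each diet (n = 3). The diets are separate in Psmb8 and Psme1 and overlap in the other panels.

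The assembly chaperones of the 19S base, which bind ATPases before the particle is complete, had fold changes on both sides of 0. Psmd9, at chr5:123169413-123250131 on the plus strand, had 17.3, 15.4 and 22.8 CPM on the NCD and 15, 11.3 and 15.8 CPM on the HFD, from 140, 143 and 216 counts against 104, 103 and 115. NCD replicate 3 was the highest library, HFD replicate 2 the lowest, and HFD replicate 3 lay above NCD replicate 2. The log2 fold change was -0.41 (SE 0.19, unadjusted p = 0.0451 in edgeR's quasi-likelihood test, adjusted p = 0.979). It was -0.51 without HFD replicate 3 and -0.23 without NCD replicate 3, and the unadjusted p was 0.0630 in DESeq2.

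Psmd10, which encodes gankyrin, had 19.3, 25.8 and 25.8 CPM on the NCD and 23.6, 29.9 and 32.3 CPM on the HFD. HFD replicates 2 and 3 lay above the NCD libraries, and the log2 fold change was 0.28 (SE 0.16, unadjusted p = 0.101 in edgeR). Psmd5 had a log2 fold change of -0.04 (SE 0.14). Exons of Psmd9, Psme1, Psmb8 and Psmb9 each overlap a gene on the other strand, with under 75 of their last 300 transcript bases shared, and 12 of the 46 genes overlap a gene in this way. In 3 of these, Psmb7, Psmc3 and Psmc3ip, the overlap includes the end of the transcript, where 3′ reads fall.

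The 2 tissue-restricted genes were at or near the floor. Psma8, the alpha subunit of the testis, was counted 0, 3 and 0 times on the NCD against 5, 1 and 1 times on the HFD. Psmb11, the subunit of the thymus cortex, was counted 5, 5 and 0 times on the NCD against 8, 4 and 6 times on the HFD, and its 3′ end holds a stretch that is similar in many other genes. Both were under the filter and were not tested. Psmc3ip had 10.4, 8.09 and 4.53 CPM on the NCD and 7.2, 9.18 and 7.84 CPM on the HFD, and its end overlaps the gene Mlx on the other strand.

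Among the genes of the pathway outside the name rule, in 6 lists, Nfe2l2 and Calr had an unadjusted p under 0.05 in edgeR. Both were higher on the HFD, as were 1.71% of all genes tested at that threshold, while 1.98% were lower. Nfe2l2 encodes NRF2, a transcription factor that acts through AREs, and had 19.5, 18.7 and 18.4 CPM on the NCD and 22.0, 22.2 and 28 CPM on the HFD. The diets were separate, with a log2 fold change of 0.35 (SE 0.15, unadjusted p = 0.0302 in edgeR), and of 0.23 (unadjusted p = 0.132 in edgeR) without HFD replicate 3. The unadjusted p in edgeR was also over 0.05 without NCD replicate 1 (0.0512), NCD replicate 2 (0.0693) or NCD replicate 3 (0.0636). Nfe2l1, whose product drives proteasome genes when the protease is inhibited, had 198, 169 and 170 CPM on the NCD and 190, 181 and 188 CPM on the HFD. Together 1 of 7 genes of transcriptional control was under the threshold. In the 6 lists the diets were also separate upwards in Mafg, Maff, Pdia3, Uchl5 and Psmg4 and downwards in Syvn1. Of all genes tested, 4.31% were separated upwards and 4.49% downwards.

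Calr, a chaperone of MHC class I loading, had 293, 278 and 275 CPM on the NCD and 305, 337 and 345 CPM on the HFD, with separate diets and a log2 fold change of 0.22 (SE 0.10, unadjusted p = 0.0377 in edgeR), or 0.19 without HFD replicate 3. It was the one gene of 9 tested for antigen processing under the threshold. Without NCD replicate 1, 2 or 3 the unadjusted p of Calr in edgeR was 0.0623, 0.0980 and 0.0768, all over that threshold. It was also over the threshold without HFD replicate 2 (0.114), but under it without HFD replicate 1 (0.0281) or 3 (0.0417). Tap1, which lies between Psmb9 and Psmb8, had 1.73, 3.13 and 2.11 CPM on the NCD and 3.31, 2.62 and 2.06 CPM on the HFD, with overlapping diets and a log2 fold change of 0.19 (SE 0.39, unadjusted p = 0.631 in edgeR). Tap2 had a log2 fold change of -0.21 (SE 0.22).

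None of the other lists had a gene under an unadjusted p of 0.05 in edgeR. They held 8 assembly factors and 19S subunits with other names, 5 ubiquitin enzymes bound to the proteasome, 5 tested ubiquitin and E1 genes and 9 shuttle receptors with VCP. Pomp, which matures the 20S core, had 429, 405 and 425 CPM on the NCD and 388, 414 and 534 CPM on the HFD, again with HFD replicate 3 as the highest library, at a log2 fold change of 0.09, or -0.07 without it. Rps27a, a fusion of ubiquitin and a ribosomal protein, had 242, 259 and 222 CPM on the NCD and 246, 245 and 386 CPM on the HFD, at a log2 fold change of 0.28, or 0.03 without HFD replicate 3.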

How the data were processed

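RNA from forebrain hemispheres was prepared as QuantSeq 3′ libraries. The authors aligned trimmed reads to mm10 with Bowtie2, counted alignments per gene with Bedtools and deposited read counts without normalization. The annotation and the use of strand are not given in the sources used here. The quantile normalization named in the methods is not part of the deposited counts.

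The members and gene lists were chosen with earlier results of these data known. Counts were analysed with edgeR 4.0.16 in R 4.3.3, with filterByExpr (minimum count 10, minimum total 15), TMM scaling and the quasi-likelihood test without covariates, adjusted by Benjamini-Hochberg over 13771 genes. Standard errors (SE) were obtained from the F statistic and the log2 fold change. Total counts were between 6842785 and 9689372 per library, and floors and intervals cover counting error only. Statistics across genes were tested on simulated data. Full values are given for the catalytic genes, genes with an unadjusted p under 0.05 and the highest and lowest fold change of each list with at least 3 genes tested. Other genes named were chosen after their values were seen. Alternatives were DESeq2 1.42.0, limma 3.58.1 after quantile normalization of log2(CPM + 1), upper-quartile scaling, library size alone, 2 other filters, leaving out genes over 2% of counts, a replicate block and leaving out each library. Gene positions and transcript ends came from GENCODE vM21, and ends were compared with BLAST 2.17.0 over the last 300 bases (at least 95% identity over 75 bases). Figures were drawn with matplotlib 3.10.9.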

Additional observations from a re-analysis of the deposited data

How the results depend on the processing

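The number of proteasome genes higher on the HFD at an unadjusted p under 0.05 was 1 in place of 2 with library size alone and with at least 10 counts in every library, where Psmb9 was not tested, and 0 (without NCD replicate 3) to 3 (without HFD replicate 1) when a library was left out. The number lower was 0 in place of 1 with DESeq2 and with quantile normalization, and 0 to 2 when a library was left out, with 0 without NCD replicate 1, NCD replicate 3 or HFD replicate 2 and 2 without HFD replicate 3. Genes with all HFD libraries above the NCD libraries numbered 3 to 6 and those below 0 to 2 over all these settings, with 2 below under library size alone. With a library left out the first count was 4 to 6, with the highest without HFD replicate 1. The same CPM were used with a library removed, so both counts could only stay or rise. This rise is therefore no result about the proteasome genes, and the share over all genes was not computed for it. The adjusted p stayed over 0.05 for every proteasome gene in all settings run, between 0.837 (Psme1 without HFD replicate 1) and 0.9999.

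Small fold changes turned their sign. Psmc2 was at -0.00815 with library size alone, and -0.0094 (without HFD replicate 3) to 0.034 with a library left out. In the same way Psmb5 ranged from -0.022 to 0.17 and Psmb4 from -0.13 to 0.18, both lowest without HFD replicate 3, Psmb7 from -0.047 (without NCD replicate 3) to 0.25 and Psme4 from -0.10 to 0.036 (without NCD replicate 2). The unadjusted p of Psmb9 was 0.0502 with library size alone, and that of Psmd10 was 0.0313 and of Psmb10 0.0353 without HFD replicate 1. For the genes given in full, 139 fold changes under other settings and 92 with a library left out kept their direction and their side of an unadjusted p of 0.05. Under other settings 3 lost the threshold and 1 turned its sign, and with a library left out 8 lost it, 3 gained it and 5 turned their sign. The cause was not tested. Deviations from the diet means showed no pairing by replicate number, as they correlated between same-numbered libraries with -0.03, 0.05 and -0.06 over 13771 genes. The TMM factors were lowest in replicate 3 of each diet, at 0.981 on the NCD and 0.958 on the HFD. In the read reports of the paper's supplement, the GC content was also alike between same-numbered libraries. Shared handling of same-numbered libraries was not tested. With the replicate number as a block 2 genes were higher and 1 lower, with medians of 0.10 for 20S, 0.02 for 19S and 0.30 for the immunoproteasome. The share of inducible genes needs no scaling, so only leaving out libraries was tried, which gave differences of 0.477 to 1.34 percentage points. Psmb9 had 5 to 29 counts a library, which limits its precision.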
